A study of Mus musculus with 4 samples.

Results

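The 9 genes described here are the ligand genes Nodal and Gdf1, the co-receptor genes Cfc1 (Cryptic) and Tdgf1 (Cripto), the transcription factor gene Foxh1 and the antagonist genes Lefty1, Lefty2, Dand5 and Cer1. They were chosen by name, from the array's gene names and the current symbols of its accessions, and are 9 of 18608 measured genes. Each of the 9 had 1 probe, a 60-base oligonucleotide spotted once per array, and all 9 probes were well above background in all 4 samples.

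Left-right identity in the mouse embryo is set around the node, a pit of ciliated cells at the distal tip of the embryo whose beating cilia move fluid leftward. Nodal, a ligand of the TGF-beta family, is made in the crown cells that border the pit, acts with its partner GDF1 through activin receptors and an EGF-CFC co-receptor, and switches on its targets through SMAD proteins and the forkhead factor FOXH1. Among those targets are the secreted antagonists Lefty1, of the embryonic midline, and Lefty2, of the streak mesoderm and later the left lateral plate, which keep the signal local. Dand5 and Cer1 encode antagonists of the Cerberus family, Dand5 in the crown cells and Cer1 in anterior endoderm.

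The samples were node-containing distal pieces of mouse embryos at the early headfold stage (about E7.75), on a mixed Sv129/CD-1 background, in which GFP had been inserted into Noto, which encodes a homeobox factor made in the node and notochord. One pool of 120 to 150 pieces was homozygous (Noto GFP/GFP) and 1 was heterozygous (Noto GFP/+). Both pools therefore carried the GFP allele, and no embryo without it was measured, although the series' design text speaks of a wild type. The label fields differ on how much of each embryo the piece comprised. RNA of both pools was hybridised together on 1 Agilent 2-colour array, with the homozygote in Cy5 and the heterozygote in Cy3, and again on array 2 with the dyes exchanged. The 2 arrays are technical replicates of 1 pool per genotype. No significance test was possible, and every SD below is over the 2 arrays and measures technical spread alone. Pooled tissue was measured, so fewer cells of a type and less RNA per cell cannot be told apart. No value of Noto was used, and the genotype labels were therefore not checked on the disrupted gene.

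Ratios are the homozygote over the heterozygote on the log2 scale, and a gene is called higher or lower where its ratio on each of the 2 arrays reached 1.5-fold (0.58 in log2 units) with the same sign. Of all measured genes 2.4% were called, 11 higher (0.0591%) and 436 lower (2.34%). With the authors' value table in place of loess values, the split was 95 higher and 650 lower. In the scanner software's summary of spiked-in control RNAs the slope of observed on expected log ratio was 0.809 on array 1 and 0.705 on array 2, so ratios were compressed. The 8 markers of node pit and notochord cells and the 6 of crown cells were all well above background in every sample. So were 64% to 81.5% of all gene spots, by array and dye, and this alone does not show that node tissue was present.

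Among the 9 genes, Lefty2 was called higher in the homozygote (0.82 ± 0.25 SD, n = 2 arrays, a fold of 1.76) and none was called lower. Lefty1, the other Lefty gene, had ratios below 0 on both arrays (-0.51 ± 0.20) and missed the size rule on array 2. Ratios of the ligand genes Nodal and Gdf1 and of the co-receptor gene Cfc1 lay within 0.08 of 0 on each array. The median over the 9 genes was -0.0046, beside -0.02 over all measured genes. Ratios lay below 0 on both arrays for 3 of the 9, above 0 on both for 3 and on opposite sides for 3; over all measured genes the shares were 34.0% below and 25.7% above. The genotypes' levels did not overlap over the 2 arrays for 4 of the 9 (Foxh1, Lefty1, Lefty2 and Cer1), where 27.3% of all measured genes showed the same.

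**Figure D1:**
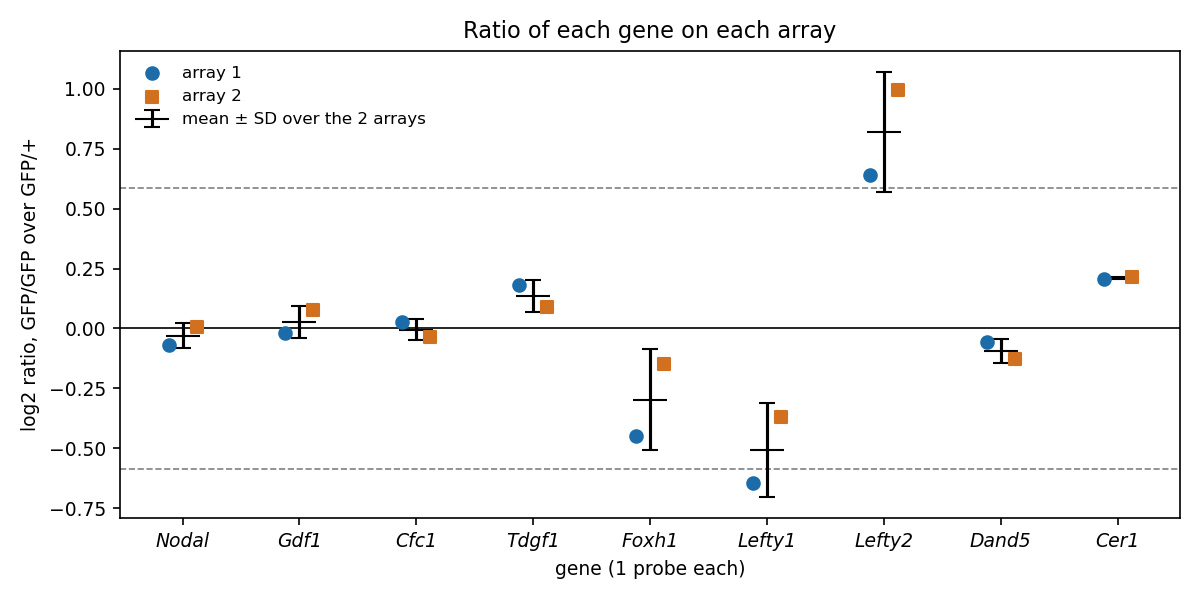
Log2 ratio of the homozygote over the heterozygote for each of the 9 genes on array 1 (circles) and array 2 (squares), with the mean and SD over the 2 arrays in black; dashed lines mark 1.5-fold. Lefty2 lies past the upper line on both arrays, Lefty1 past the lower line on array 1 alone, and the other 7 genes between the lines.

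Lefty2 and Lefty1 encode closely related proteins that bind Nodal and its co-receptors, and their genes lie close together on chromosome 1. The probe positions in the files, on mouse build mm8, are chr1:182734521-182734580 for Lefty2 and chr1:182774681-182774740 for Lefty1, both on the plus strand and 40100 bases apart. Because the genes are related and their values differed in sign, it matters whether the probes could read each other's transcript, and part of each probe (30 of its 60 bases, from base 1 for Lefty2 and base 6 for Lefty1) is shown with the longest stretch that both hold in capitals.
Lefty2: ttgtcctaacttAGTGCTCtcgtcagacct
Lefty1: atgcaaatctgaAGTGCTCattatactggg
That stretch was 7 bases long. In the best ungapped alignment of the whole probes 20 positions were identical, and no other gene probe on the array shared 20 bases in a row with either. The Lefty1 probe holds a stop codon in each of its 3 sense reading frames, so it cannot lie wholly in coding sequence, while the Lefty2 probe has 1 frame without one. The part of the gene each probe covers is not annotated in the files, and the whole transcripts were not compared.

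In the authors' value table, which holds a background-subtracted and dye-normalized intensity for each sample, Lefty2 stood at 2293 and 2295 in the heterozygote and at 3637 and 4494 in the homozygote (array 1, then array 2, as in every such pair here). Both homozygote values were above both heterozygote values, and the heterozygote values of the 2 arrays were nearly equal. Levels were also computed after loess within arrays and Aquantile normalization between them. They were 12.95 and 13.004 on the log2 scale in the heterozygote and 13.59 and 14.0005 in the homozygote, again without overlap. The unprocessed foreground intensities show how the dye exchange bears on this. On array 1 the homozygote, in Cy5, read 14156 against 4125 in Cy3, and on array 2 the homozygote, now in Cy3, read 15231 against 15040 in Cy5. The median gene spot was brighter in Cy5 on both arrays (438 against 305 on array 1 and 722 against 399.6 on array 2), so equal readings on array 2 correspond to a higher level in the homozygote.

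The log2 ratio of Lefty2 was 0.64 on array 1 and 0.997 on array 2, folds of 1.56 and 2.0. Only 2 other measured genes had ratios at least as high on both arrays. The scanner software's own log ratio, with the error of its error model, was 0.67 ± 0.21 on array 1 and 0.98 ± 0.22 on array 2, above 0 by more than that error on each. Lefty2 was also called without background correction, with the software's log ratio, with the value table and with median centring (means from 0.82 to 1.03). At a 2-fold rule it was not called.

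Lefty1 was dim. Its foreground was 361 in Cy3 and 756 in Cy5 in the heterozygote and 350 in Cy5 and 349 in Cy3 in the homozygote, over local backgrounds of 46, 82.5, 67 and 73.5. In the value table it read 132 and 97 in the heterozygote and 78 and 82 in the homozygote. After loess and Aquantile normalization it read 8.96 and 8.79 against 8.32 and 8.42 on the log2 scale. Both homozygote values lay below both heterozygote values on either scale. The log2 ratio was -0.64 on array 1, past the size rule, and -0.37 on array 2, short of it. The software's log ratio was -0.75 ± 0.22 and -0.31 ± 0.23. Of the measured genes, 430 others had ratios at least as low on both arrays. Of genes dimmer than the median 4.15% were called (4.05% lower, 0.0967% higher), and of brighter genes 0.656% (0.634% lower, 0.0215% higher). Lefty1 belongs to the dimmer set, but it was not called and so is not among the 4.05%. Lefty2 belongs to the brighter set and is itself 1 of the 2 genes that make up the 0.0215%. That share is therefore no independent background for it.

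The difference between the 2 genes, Lefty2 minus Lefty1, was 1.29 on array 1 and 1.36 on array 2 (1.33 ± 0.06), and its spread over arrays was smaller than that of either ratio. It was 1.42 and 1.29 with the software's log ratio, 1.42 and 1.22 with the value table, and 1.83 and 1.27 with median centring. The sign was the same in each of these cases. The size varied on both arrays, more so on array 1, and the close agreement of the arrays did not hold with median centring.

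**Figure D2:**
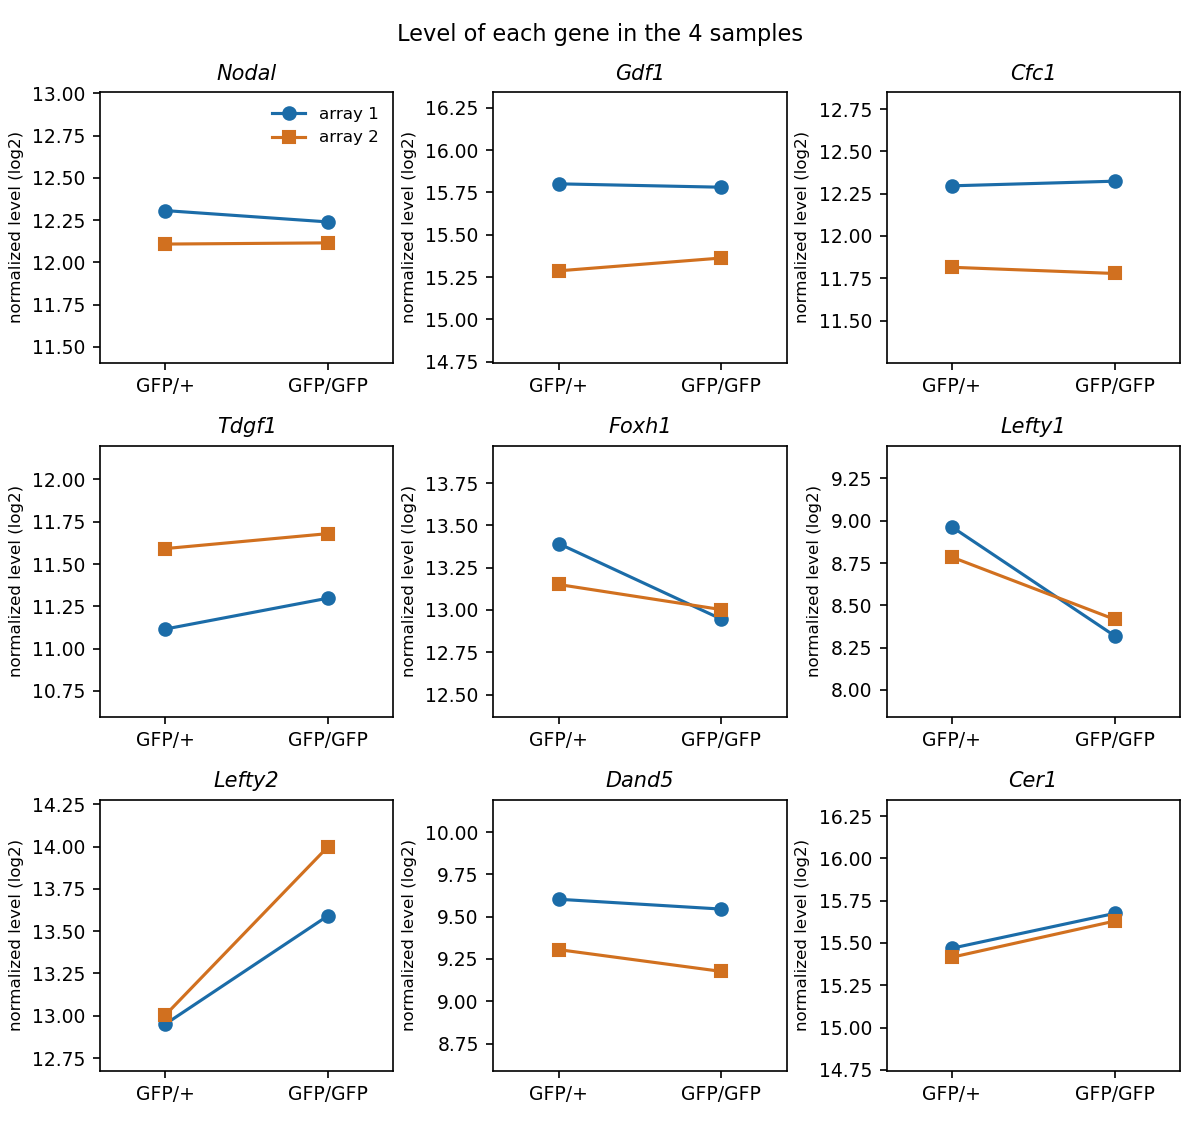
Normalized log2 level of each gene in the heterozygous (GFP/+) and homozygous (GFP/GFP) pool, with 1 line per array; every panel spans the same range of 1.6 log2 units, and levels of different probes cannot be compared. Lines for Lefty2 climb from about 13 to 13.59 and 14.0005, those for Lefty1 descend, and those for Nodal, Gdf1 and Cfc1 are close to flat, with a larger gap between arrays than between genotypes.

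The genes around the Lefty pair were looked at for a shift shared along the chromosome. The 10 protein-coding genes that flank the pair in the order of RefSeq's GRCm38.p6 assembly, 5 on each side, were taken. The gene between Lefty2 and Lefty1 in that order was left out. Of the 10, 9 were measured and 0 were called, with means from -0.22 to 0.22. Over all measured genes 2.4% were called, so 0 of 9 says little about them, and a shared shift was not tested. The lowest was Mixl1, a homeobox gene of the primitive streak and itself a Nodal target, at -0.22 ± 0.07, and the highest was the histone gene H3f3a at 0.22 ± 0.57, with opposite signs on the arrays. These neighbours were chosen after the Lefty values were known.

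Nodal, the ligand gene, differed less between the genotypes than between the arrays. The value table gave 1525 and 1417 in the heterozygote and 1492 and 1426 in the homozygote, and both homozygote values lay between the heterozygote's. Its log2 ratio was -0.07 on array 1 and 0.01 on array 2 (-0.03 ± 0.05), at probe chr10:60820399-60820458 on the plus strand. Gdf1, which encodes the partner that Nodal needs to act over distance, read 17696 and 12465 in the heterozygote and 17521 and 12438 in the homozygote. The arrays differed more than the genotypes did, and the ratios were -0.02 and 0.08 (0.03 ± 0.07).

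The Gdf1 probe, at chr8:73260489-73260548, is listed in the files under a RefSeq transcript of Gdf1 and under one of Cers1, a ceramide synthase gene that overlaps it. Its signal therefore cannot be assigned to Gdf1 alone, and the first 30 of its bases are shown as the sequence that both transcripts are listed to share.
Gdf1: gaccgccccacgcaaaagcagggactgttt
No other probe listed that Cers1 transcript.

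The co-receptor genes were read by 1 probe each. Cfc1, whose protein presents Nodal and GDF1 to the receptors and whose loss in mice randomises the body axis, stood at 1632 and 1265 in the heterozygote and 1618 and 1231 in the homozygote. Its ratios were 0.03 and -0.04 (-0.0046 ± 0.05), with no common direction. The positions given for its probe, chr1:34481946-34488594, span 6649 bases for 60 bases of sequence, so the probe crosses at least 1 intron and reads spliced RNA. Tdgf1, the co-receptor gene of the epiblast and streak, read 661 and 918 in the heterozygote and 750 and 1000 in the homozygote. Within each array the homozygote was higher, but the 2 genotypes overlapped across arrays. The ratios were 0.18 and 0.09 (0.14 ± 0.07) at chr9:110785566-110785625 on the minus strand, and 1541 other measured genes were at least as high on both arrays.

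Foxh1, whose product brings activated SMADs to Nodal response elements, including those of the Lefty genes, stood at 4631 and 3378 in the heterozygote and 3764 and 3088 in the homozygote. The homozygote was lower within each array, yet its value on array 1 exceeded the heterozygote's on array 2. After loess and Aquantile normalization the levels were 13.39 and 13.15 against 12.95 and 13.0021 and did not overlap. The ratios were -0.45 and -0.15 (-0.30 ± 0.21; chr15:76495980-76496039, minus strand), both short of the size rule. With median centring they took opposite signs (0.10 and -0.27).

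Of the Cerberus-family antagonist genes, Dand5 was near 0 and Cer1 above 0. Dand5, which encodes the antagonist that flow represses on the left side of the node, read 204 and 151 in the heterozygote and 193 and 143 in the homozygote, ratios of -0.06 and -0.13 (-0.09 ± 0.05; chr8:87706549-87706608, minus strand). The array difference was again larger than that between genotypes. Cer1 read 16979 and 14665 in the heterozygote and 20232 and 16709 in the homozygote, and its ratios of 0.21 on each array (0.21 ± 0.01; chr4:82353058-82353117, minus strand) agreed most closely of the 9 genes. The values overlapped across arrays in the value table (16709 against 16979). They did not after loess and Aquantile normalization, where they were 15.47 and 15.42 against 15.67 and 15.63. The spots of Cer1 and Gdf1 were brighter than 89.9% and 90.1% of measured genes, and their ratios moved most with the way the dye trend with brightness was treated. With median centring Cer1 read 1.06 and -0.22, and Gdf1 0.87 and -0.32.

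**Figure D3:**
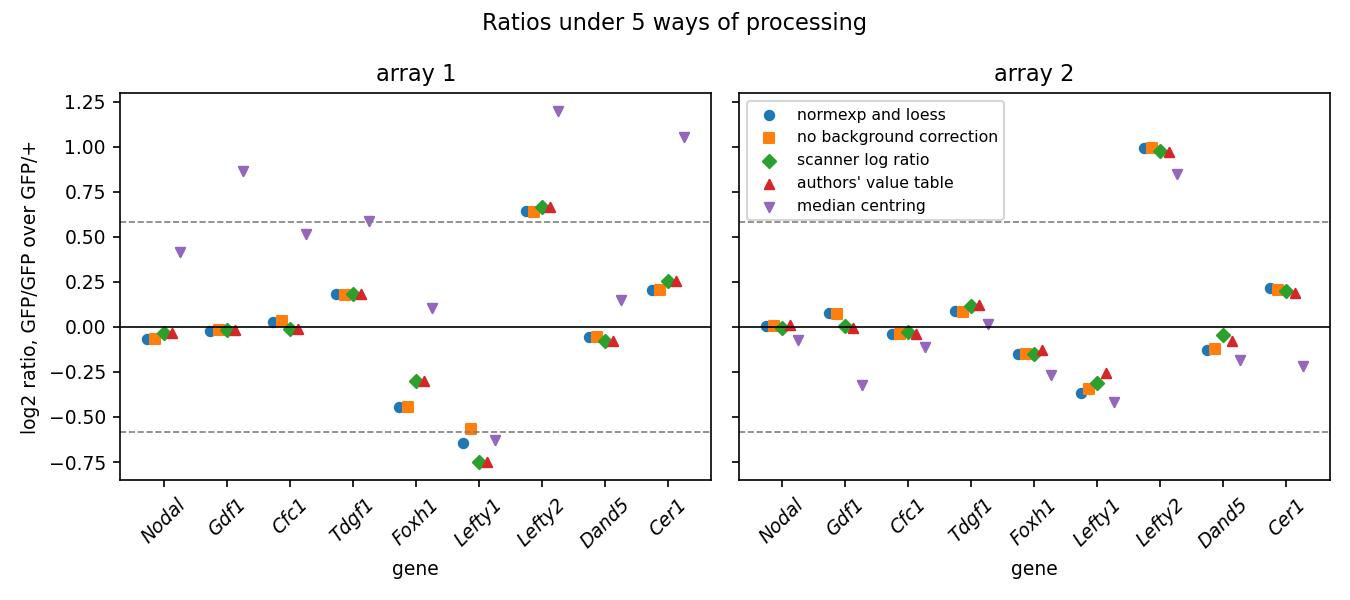
Log2 ratio of each gene on array 1 (left) and array 2 (right) under 5 ways of processing the same spots, with dashed lines at 1.5-fold. Lefty2 stays past the upper line on both arrays under all 5; median centring (downward triangles), which removes no dye trend with brightness, moves the bright genes Gdf1 and Cer1 to 0.87 and 1.06 on array 1.

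Median centring also moved the median of all measured genes, to 0.39 on array 1 and -0.16 on array 2. Relative to those medians, Lefty2 read 0.81 and 1.02, Lefty1 -1.02 and -0.25, Foxh1 -0.29 and -0.10, Tdgf1 0.20 and 0.18, Nodal 0.03 and 0.09, and Cer1 0.67 and -0.05. Dand5 read -0.24 and -0.02. The directions of the Lefty genes, Tdgf1, Foxh1 and Dand5 thus held on both arrays relative to the median, and that of Cer1 did not.

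**Figure D4:**
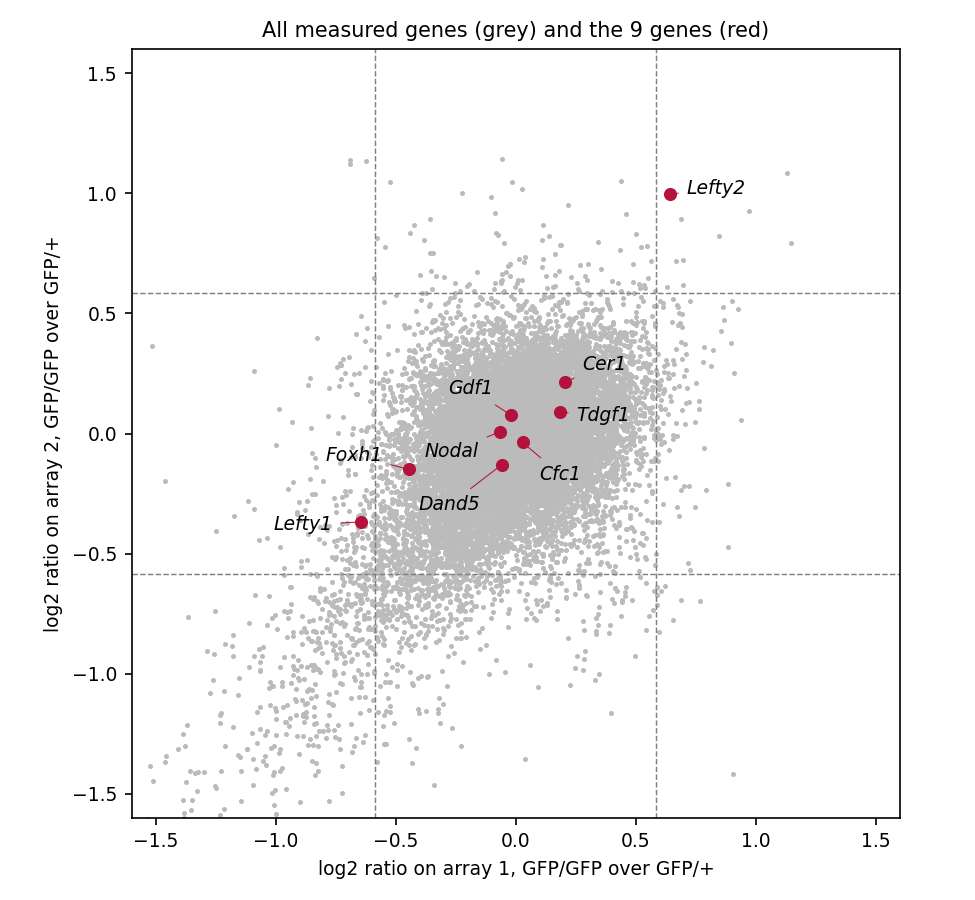
Log2 ratios of all 18608 measured genes (grey) on array 1 (horizontal) and array 2 (vertical), with the 9 genes in red and dashed lines at 1.5-fold; 40 genes lie outside the axes at 1.6. Lefty2 stands in the sparse upper right corner, which 11 genes reach, and the other genes except Lefty1, at the left line, lie between the lines on both arrays.

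The genes whose pair of ratios lay nearest to those of Lefty2, by Euclidean distance over the 2 arrays and among genes with a real symbol, were Ube2s (0.69 and 0.89, distance 0.113), Abcc12 (0.46 and 0.91, distance 0.199) and Klhl6 (0.54 and 0.78, distance 0.236). No gene with a symbol came within 0.1 of Lefty2. The nearest to Lefty1 were Khdc3 (-0.65 and -0.36), Tekt2 (-0.66 and -0.36) and Wdr54 (-0.65 and -0.34), at distances of 0.0125, 0.0183 and 0.0273, among 30 genes within 0.1. The likeness is over 2 arrays of the same RNA and describes these hybridisations.

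Beyond the 9 genes, a list of 45 was examined: ligands, receptors, SMADs and their partners, convertases, negative regulators and Nodal targets. Besides the Nodal pathway it takes in ligands and receptors of TGF-beta and BMP. Of the 45 genes, 42 were measured (Gdf3, Inhba and Acvr1c were not) and 0 were called, against 2.4% of all measured genes. Their median was 0.04, with 17 above 0 and 10 below 0 on both arrays. No receptor was below 0 on both arrays and 3 of 6 were above on both. Over all measured genes 34.0% were below and 25.7% above. The highest of the 6 was Tgfbr2 (0.24 ± 0.07), the type II receptor of TGF-beta. Other probes of Tgfbr1 and Acvr2a read higher (0.53 and 0.34) than the brighter probes used (-0.02 and 0.11). Among the 5 ligands Inhbb, which encodes an activin subunit, lay farthest from 0 (0.26 ± 0.20), though its other probe read -0.08.

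Of the 7 SMADs and partners the ubiquitin ligase gene Trim33 lay farthest (0.27 ± 0.18). The convertase gene Pcsk6, whose product cleaves the Nodal precursor, read 0.18 ± 0.25, and its other probe 0.12. Of the 12 negative regulators Smurf1, a ubiquitin ligase of the pathway, read 0.24 ± 0.08 and its other probe 0.04.

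The 9 Nodal targets had a median of -0.10. Of them 4 lay below 0 on both arrays and 1 above, beside 34.0% and 25.7% of all measured genes. Gsc, a homeobox gene of the organiser and prechordal plate, was the lowest (-0.66 ± 0.20, with -0.52 on array 1 and -0.80 on array 2) and missed the size rule on array 1. The notochord gene T read 0.33 ± 0.02. T was chosen after its values were seen. Lefty2, itself a target of the pathway and not counted in the 9, lay above 0 on both arrays, as T alone did among the 9.

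**Figure D5:**
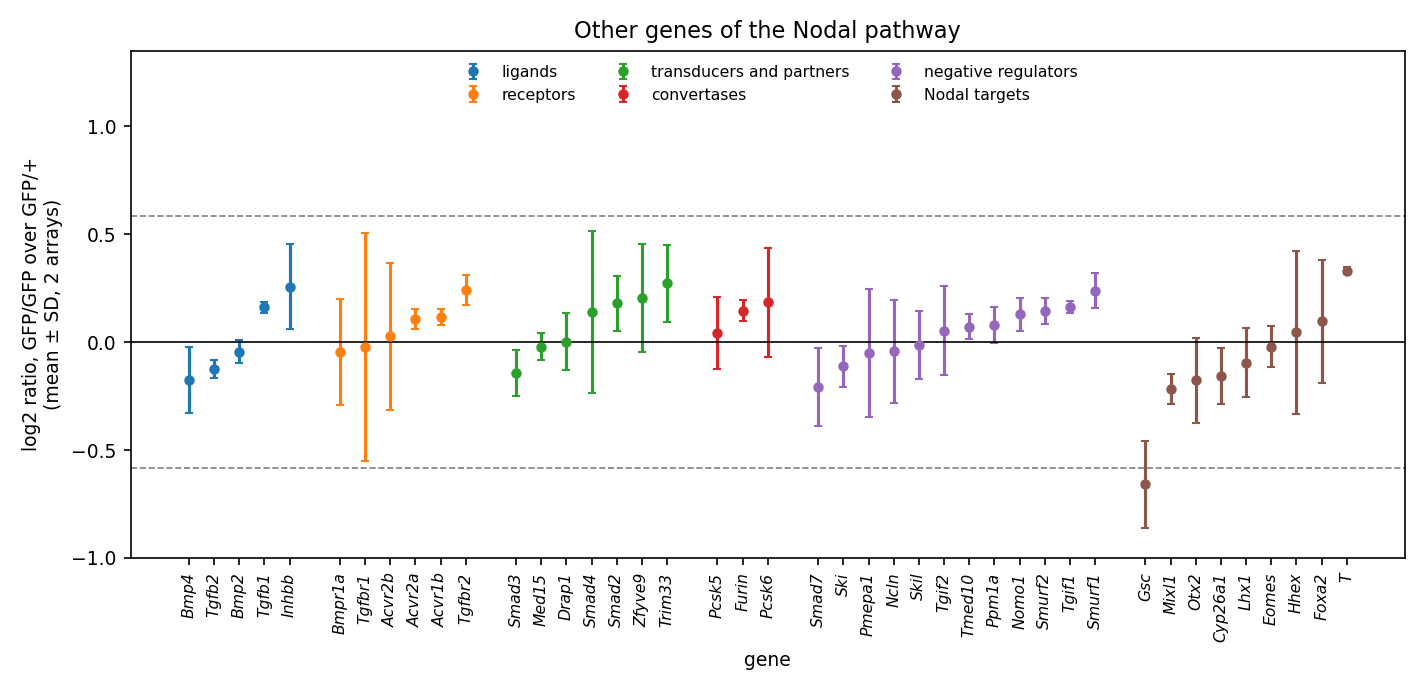
Mean log2 ratio and SD over the 2 arrays for the 42 other measured genes of the pathway list, which includes TGF-beta and BMP genes. They are grouped and coloured by role and ordered by value within each role, with dashed lines at 1.5-fold. Only the mean of Gsc lies beyond a dashed line, and its ratio on array 1 does not; the Nodal targets reach lowest, and T is the highest of the 42.

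Markers of the cell types that make these genes were set beside them. Because 2.34% of all measured genes were called lower and 0.0591% higher, 0 called in lists this short says little about a cell type. None of the 6 crown cell markers was called (means from -0.10 to 0.04). Their levels after loess and Aquantile normalization were summed on a linear scale. The sum was 95423 and 76677 in the heterozygote and 95228 and 76421 in the homozygote. The brightest probe of a list weighs most in such a sum, and the Gdf1 probe, which also lists Cers1, made up 52.1% to 59.8% of this one. Of the 6 markers 4 are Nodal, Gdf1, Cfc1 and Dand5, and a second probe of the calcium channel gene Pkd2 read -1.36 where its brighter probe read 0.04. Other probes of Bicc1 read -0.32 and -0.15 where its brightest read -0.10, so the range above holds for the brightest probes alone. None of the 9 markers of the primitive streak and nascent mesoderm, where Lefty2 is known to be made at this stage, was called (means from -0.24 to 0.08), and their sum was 216541 and 245602 against 217967 and 242249. The part of these cells in the Lefty2 ratio was not tested.

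Of the 8 node pit and notochord markers 1 was lower, Tppp3, a tubulin-binding protein of ciliated cells (-0.82 ± 0.16), and the median was -0.42. Below 0 on both arrays were 5 of the 8, the others besides Tppp3 being Foxd4 (-0.57 ± 0.09), Foxj1 (-0.52 ± 0.09), Shh (-0.44 ± 0.07) and Nog (-0.40 ± 0.07). Above 0 on both arrays were T (0.33 ± 0.02) and Chrd (0.08 ± 0.03), and Foxa2 (0.10 ± 0.29) had opposite signs. Of all measured genes 34.0% lay below 0 on both arrays, 25.7% lay above, and 2.34% were called lower. Summed over the list, the level was 135422 and 124994 in the heterozygote and 127709 and 136046 in the homozygote, with no common direction. Foxa2, with its opposite signs, made up 36.0% to 47.3% of that sum, which therefore tells little of the other markers. The markers of this list thus lay on both sides of 0, and their part in the Lefty1 ratio was not tested.

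Anterior endoderm and prechordal plate markers, the list that holds Cer1, had 0 of 7 called (median -0.03, from -0.66 for Gsc to 0.23 for Dkk1), with sums of 93656 and 97590 against 107685 and 100365. Cer1 is itself one of the 7 and made up 44.8% to 50.5% of the sum, which is no independent gauge of it. None of the 7 lateral plate and cardiac markers was called (median -0.09, sums of 13126 and 13882 against 11609 and 11219). Hand1 made up 56.5% to 64.1% of that sum, and of the 7 markers 4 lay below 0 on both arrays and 2 above. Of the 7 neural ectoderm markers 0 were called (median -0.10), and their sum was lower in the homozygote on both arrays (24106 and 19051 against 17525 and 17094), with Sox2 making up 58.4% to 63.6% of it. Definitive and visceral endoderm markers had 0 called. The alpha globin Hba-a1 was lower (-1.05 ± 0.18) and was the 1 called of 7 blood and endothelium markers. Prl8a2, a decidual member of the prolactin family, was higher (1.11 ± 0.03) and the 1 called of 5 trophoblast and decidua markers. The shares over all measured genes were 2.34% lower and 0.0591% higher. One blood marker was not well above background in all samples. Sums of that list were 9138 and 8894 in the heterozygote against 6480 and 6273 in the homozygote, and of the trophoblast list 7466 and 6268 against 7175 and 5148. Plet1 made up 54.1% to 72.0% of the trophoblast sum. Of the 5 trophoblast and decidua markers 3 lay above 0 on both arrays and 2, Plet1 among them, below. The shares over all measured genes were 25.7% above and 34.0% below. The part of any of these lists in the values of the 9 genes was not tested.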

How the data were processed

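Agilent Feature Extraction 9.5.3.1 was the scanner software, per the file headers and the submitters' processing notes. The authors' files hold, per the file headers, the foreground, background and processed intensity of each spot and dye, a log10 ratio of red over green with its error, and flags (unit other). The authors also deposited a value table of processed intensity per sample, floored and scaled by a method not given in the sources used here. Both samples of an array had identical scanner files, and 1 of each was used. Each array holds both genotypes, so every ratio is within an array.

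Background was corrected by normexp (offset 50) and dye bias by loess within arrays, with control spots at weight 0, in limma (version 3.58.1, under R 4.3.3), leaving out 179 and 165 outlier gene spots. Array 2 was turned to homozygote over heterozygote. Levels per genotype came from Aquantile normalization between the arrays, applied after loess. Per array, 77.7% and 64% of Cy3 and 81.5% and 68.1% of Cy5 gene spots exceeded background clearly by the software's flag, and 0 were saturated; the number of arrays limits the precision. A probe was measured if, on each array, that flag held for 1 genotype or both (27788 of 41174), and a gene took its brightest measured probe. RefSeq's GRCm38.p6 gene table named 33108 probes and was used for names and gene order only; 8066 kept the name in the file. Probe sequences are those of the files. Summaries and plots used Python 3.11.15 (pandas 2.3.3, numpy 2.4.6, matplotlib 3.10.9). The fit and size rule were also run on simulated data, in which only brighter probes were changed, by 2-fold or more. Neither a probe as dim as that of Lefty1 nor a fold as small as the mean of Lefty2 (1.76) was simulated. The simulation therefore does not bear on either Lefty gene.

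The genes and lists were chosen with earlier results of these data known. Named are the 9 genes, called members of each list, the gene farthest from 0 in each pathway role, and the 3 nearest to each Lefty gene. Outside that rule, T, Pkd2, Bicc1, Sox2, Hand1, Plet1, the node markers and the extremes Mixl1, H3f3a and Dkk1 are named. So are other probes of Tgfbr1 and Acvr2a. All were chosen after their values were seen. Some genes of these lists are not reported here and are left out of their counts.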

Additional observations from a re-analysis of the deposited data

How the results depend on the processing

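No paired analysis was possible because no test was run, and every ratio was taken within 1 array, which already pairs the pools. The count of called genes among the 9 was 1 with median centring, with the value table, with the software's log ratios, without background correction, with the mean of probes, with a fold of 1.3 and with both filters on dim probes, 0 with a fold of 2, 0 with array 2 left unturned, and 1 to 2 on a single array, where Lefty1 passed on array 1. All called genes numbered 813 with the software's log ratios, 745 with the value table, 1031 and 96 with folds of 1.3 and 2, 14 with array 2 unturned and 767 to 1057 on a single array, against 447. Other pathway genes called numbered 1 with a fold of 1.3 and 0 to 1 on a single array, Gsc in both cases. The median over the 9 genes was 0.20 with median centring and -0.02 to 0.01 on a single array. Of 63 values of the 7 genes other than Lefty1 and Lefty2 under alternatives, 9 shifted beyond the SD between the arrays, at most by 0.25. Many of the 63 could not shift so far. With 1 probe per gene, the mean of probes and the filters on dim probes leave these values unchanged. A single array always differs from the mean by less than that SD. With median centring all 7 genes shifted beyond it. Lefty1 ranged from -0.64 to -0.37 and Lefty2 from 0.64 to 1.03. The cause of these shifts was not tested, beyond the threshold or number of arrays that a setting changes itself. Limits of these values are the single pool of each genotype, 2 technical arrays, 1 probe per gene, compressed ratios and, for Lefty1 and Dand5, dim signal.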
